A study of Homo sapiens with 4 samples.

Results

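The genes described here regulate the making of mitochondria: the PGC-1 coactivator family (PPARGC1A, PPARGC1B and PPRC1), DNA-binding factors that recruit these coactivators (ESRRA, NRF1 and GABPA), the mitochondrial transcription factors (TFAM, TFB1M and TFB2M), and CREB1, a factor upstream of PPARGC1A. They were chosen by name, and all 10 were found among the 23786 features of the arrays, 22458 of which carried a gene symbol. The cells were U87, an established human glioblastoma line grown in DMEM with serum, and the drug was crizotinib, which blocks the kinase activity of the receptors MET, ALK and ROS1. Cells kept in 2 µM crizotinib for 24 hours were set against vehicle-treated cells of the same time. Cells kept in 1 µM crizotinib for 21 days, labelled resistant, were set against a drug-free culture of the same growth conditions, labelled sensitive.

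In the labels both arms of the 21-day pair carry the same culture name in the protocol, so the sign of every 21-day difference rests on reading the resistant array as the culture in drug. Each condition was measured on 1 array, all in the same line, so no difference between 2 arrays has a replicate check, and precision is limited by how few arrays there are. Values are log2 RMA levels per gene, and a level can be compared between arrays for the same gene but not between genes. Array medians lay between 4.92 and 4.98. Of the U87 markers, 7 of 7 measured genes, VIM and CD44 among them, reached the median of all deposited values (4.96) on all 4 arrays, and CDKN2A, CDKN2B and MTAP, which are deleted in this line, were below it on all 4. Of the 5 astrocyte markers, 4 including GFAP were also below it on all 4 arrays, while the glutamate transporter gene SLC1A3 was above it, at 7.84 in 24-hour crizotinib and 7.75 in vehicle, and at 5.44 in 21-day crizotinib and 7.41 in the 21-day control. All 4 measured oligodendrocyte markers and all 5 measured leukocyte markers were below it throughout, while SNAP25 of the neuron list, KDR of the endothelial list and KRT8 of the epithelial list were above it on all 4 arrays.

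PGC-1 coactivators do not bind DNA themselves. They dock on nuclear receptors such as ERR-alpha, on NRF-1 and on GABP, and raise transcription of nuclear genes for respiration and fatty acid oxidation. NRF-1 and GABP also act on the genes for TFAM, TFB1M and TFB2M. TFAM and TFB2M act in transcription of mitochondrial DNA, and TFB1M methylates the mitochondrial ribosomal RNA. The coactivators thus link signals in the cytoplasm to both genomes. PGC-1alpha itself is induced in tissues with a high oxidative demand, and in liver and muscle phosphorylated CREB binds its promoter.

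Sequences before the transcription starts are shown for PPARGC1A, the member with the largest difference, and for the mitochondrial transcription factors, whose differences diverged. They are the 250 bases before each start in RefSeq on GRCh38.p14, written 5′ to 3′ on the gene's strand, with capitals marking motif matches. The RefSeq windows used held 2 starts for PPARGC1A. The distal one, at the gene's 5′ end, had the window chr4:24472906-24473155 on the minus strand. The other, inside the gene and called proximal here, had the window chr4:23881102-23881351 on the minus strand. The window of TFAM was chr10:58385160-58385409 on the plus strand, that of TFB1M chr6:155314485-155314734 on the minus strand and that of TFB2M chr1:246566262-246566511 on the minus strand.
PPARGC1A, distal start: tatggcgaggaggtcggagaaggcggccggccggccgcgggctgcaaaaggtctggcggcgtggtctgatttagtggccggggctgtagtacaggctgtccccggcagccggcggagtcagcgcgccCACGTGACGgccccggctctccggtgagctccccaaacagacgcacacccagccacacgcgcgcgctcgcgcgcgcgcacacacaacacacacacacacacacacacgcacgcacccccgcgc
PPARGC1A, proximal start: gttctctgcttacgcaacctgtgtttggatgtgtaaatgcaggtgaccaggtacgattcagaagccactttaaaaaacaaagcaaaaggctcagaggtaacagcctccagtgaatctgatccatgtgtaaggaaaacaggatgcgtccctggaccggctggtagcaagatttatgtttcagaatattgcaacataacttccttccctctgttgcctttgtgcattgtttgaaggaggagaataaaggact
TFAM: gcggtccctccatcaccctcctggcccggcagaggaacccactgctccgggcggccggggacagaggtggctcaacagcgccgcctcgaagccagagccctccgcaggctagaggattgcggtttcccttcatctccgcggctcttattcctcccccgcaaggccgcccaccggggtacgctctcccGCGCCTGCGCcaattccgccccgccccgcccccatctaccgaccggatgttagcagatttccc
TFB1M: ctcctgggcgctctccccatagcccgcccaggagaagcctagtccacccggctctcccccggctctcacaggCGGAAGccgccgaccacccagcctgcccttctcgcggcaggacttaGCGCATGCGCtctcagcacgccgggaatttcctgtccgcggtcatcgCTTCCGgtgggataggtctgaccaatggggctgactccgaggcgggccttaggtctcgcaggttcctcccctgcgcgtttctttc
TFB2M: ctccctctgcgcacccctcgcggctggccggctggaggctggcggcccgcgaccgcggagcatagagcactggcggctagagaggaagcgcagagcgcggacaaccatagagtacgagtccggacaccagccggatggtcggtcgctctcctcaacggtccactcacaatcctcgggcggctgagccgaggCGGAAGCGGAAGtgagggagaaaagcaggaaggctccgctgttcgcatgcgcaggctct

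The motifs searched, on both strands, were the cAMP response element TGACGTCA bound by CREB, its shortened form TGACG, the palindromic NRF-1 site (in capitals in the TFAM window), the ETS core CGGAAG bound by GABP, the ERR core AAGGTCA, the E-box CACGTG bound by MITF and TFEB, and the YY1 core AAGATGG. Windows were found for 9 of the 10 members, 10 windows in all, and NRF1 had none. The distal PPARGC1A window held CACGTG, starting 123 bases before the start, and TGACG, starting 119 bases before it, and the matches overlap by 2 bases. No motif of the set was found in the window called proximal. Other sequence of the gene was not searched, so these windows may leave out the promoter bound by CREB. Of 35116 RefSeq windows of the same length, 6.34% held CACGTG and 21.2% held TGACG.

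The TFAM window held 1 NRF-1 match, 63 bases before the start. TFB1M held 1 NRF-1 match at 132 bases and ETS cores at 178 and 85 bases, and TFB2M held ETS cores at 59 and 53 bases that follow each other directly. An NRF-1 match was also found for ESRRA, 93 bases before its start, and an ETS core for GABPA, at 66 bases. So 3 of the 9 members with a window held the NRF-1 motif, against 5.07% of all windows, and 3 held the ETS core, against 16.5%. The full cAMP response element, in 1.65% of all windows, the ERR core, in 3.44%, and the YY1 core, in 3.70%, were found in no member window. A match is a run of letters in these windows and was not tested as a binding site.

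PPARGC1A (Entrez gene 10891, chr4:23792021-24472905), which encodes PGC-1alpha, was the member with the largest difference in the series. Its level was 8.85 on the array of 24-hour crizotinib and 5.97 on that of vehicle, and it was 6.10 after 21 days in crizotinib and 5.64 in the 21-day control. The 24-hour crizotinib array stood apart from the other 3, which lay within 0.46 of each other. The 24-hour difference was 2.88 on the log2 scale, which is 7.38-fold, and it was the third highest of 12468 features whose higher array reached 4.96. The share of these features that differed at least as far in either direction was 0.0241%, and between the untreated arrays 0.0968% of features were that far apart.

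The 21-day difference of PPARGC1A was 0.46, or 1.37-fold, a size that 31.5% of features reached in that comparison and 18.5% reached between the untreated arrays. The untreated arrays themselves differed by -0.33 for this gene (21-day control minus vehicle). Against the vehicle array, the level after 21 days in crizotinib was only 0.13 higher. Between the arrays in drug, PPARGC1A was 2.76 higher after 24 hours at 2 µM than after 21 days at 1 µM, and dose and time cannot be told apart in this difference.

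**Figure D1:**
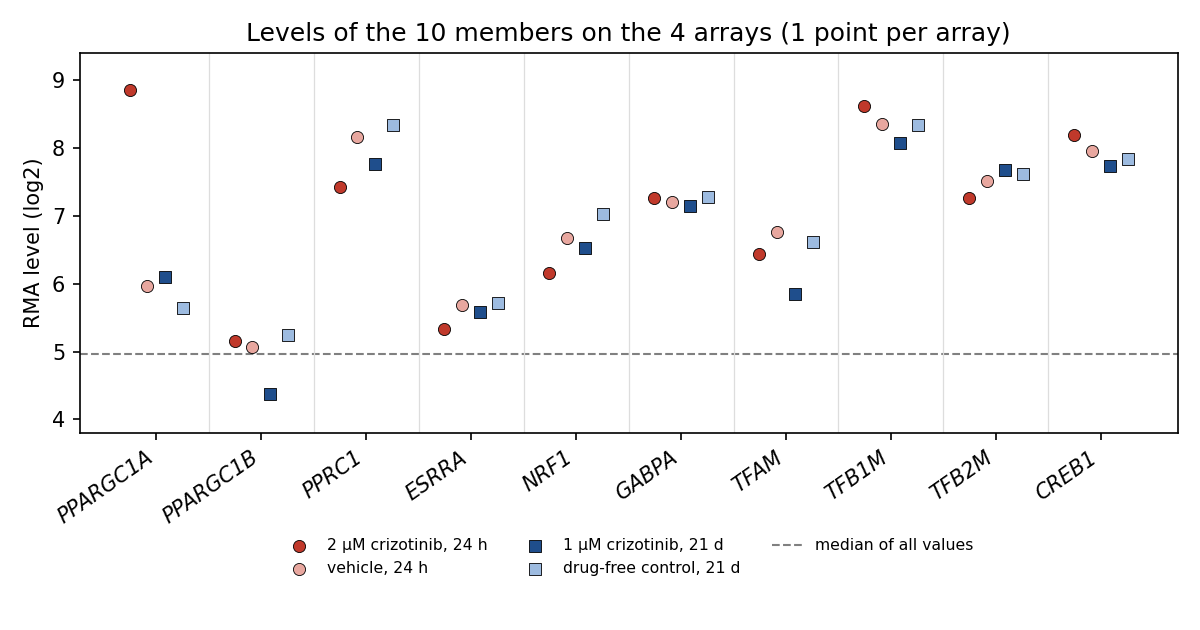
Log2 RMA levels of the 10 members, 1 point per array: 24-hour crizotinib, 24-hour vehicle, 21-day crizotinib and 21-day control from left to right for each gene, with the median of all values (4.96) as a dashed line. PPARGC1A reaches 8.85 on the 24-hour crizotinib array and stays between 5.64 and 6.10 on the other 3.

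PPARGC1B (Entrez gene 133522), which encodes the related coactivator PGC-1beta, had a different pattern. Its level was 5.16 in 24-hour crizotinib and 5.07 in vehicle, and 4.38 in 21-day crizotinib and 5.24 in the 21-day control. The 21-day crizotinib array was the 1 value below 4.96, and the other 3 were close together just above it. The 24-hour difference was 0.09 and the 21-day difference -0.86, or 1.82-fold lower, with 11.0% of features at least that far from 0 in the 21-day comparison and 4.44% between the untreated arrays. Against the 21-day control the 24-hour value turned to -0.08. Levels this near the median of all values are compressed by RMA, so a fold may be understated.

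PPRC1 (Entrez gene 23082) encodes PRC, the family member known as a growth-responsive coactivator of NRF-1 and CREB. Its level was 7.42 in 24-hour crizotinib and 8.16 in vehicle, and 7.77 in 21-day crizotinib and 8.34 in the 21-day control. Both arrays in drug lay below both arrays without drug. The differences were -0.74 at 24 hours, or 1.67-fold lower, and -0.57 at 21 days, or 1.48-fold lower. Against the vehicle array the 21-day value was -0.38. Sizes like those against the own controls were reached by 11.6% and 23.0% of features in the same comparisons. Between the untreated arrays the shares were 6.59% and 12.2%. The 3 coactivators thus differed in pattern: PPARGC1A was above 0 in both pairs, PPRC1 was below 0 in both, and PPARGC1B was near 0 at 24 hours and below 0 at 21 days.

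Among the DNA-binding factors, NRF1 (Entrez gene 4899) showed the largest differences. Its level was 6.16 in 24-hour crizotinib and 6.68 in vehicle, and 6.52 in 21-day crizotinib and 7.02 in the 21-day control. Each treated array was below its own control, by 0.52 and 0.50 on the log2 scale, or 1.43-fold and 1.41-fold. Such sizes were reached by 23.2% and 28.0% of features in the same comparisons, and by 14.6% and 15.8% between the untreated arrays. The untreated arrays differed by 0.34 for this gene, so the result moves with the control: -0.85 for 24-hour crizotinib against the 21-day control and -0.16 for 21-day crizotinib against vehicle.

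ESRRA (Entrez gene 2101), which encodes the orphan nuclear receptor ERR-alpha, had levels of 5.33 in 24-hour crizotinib and 5.68 in vehicle, and 5.58 in 21-day crizotinib and 5.71 in the 21-day control. Both arrays in drug were again below both without, by -0.35 at 24 hours and by -0.13 at 21 days, sizes that 39.9% and 75.5% of features reached in the same comparisons. GABPA (Entrez gene 2551), the DNA-binding subunit of GABP, had levels of 7.26 in 24-hour crizotinib and 7.20 in vehicle, and 7.14 in 21-day crizotinib and 7.28 in the 21-day control. Its whole range over the 4 arrays was 0.15, the smallest of the 10 members.

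Of the mitochondrial factors, TFAM (Entrez gene 7019), which packages mitochondrial DNA and activates its transcription, had levels of 6.44 in 24-hour crizotinib and 6.76 in vehicle, and 5.85 in 21-day crizotinib and 6.62 in the 21-day control. The 21-day crizotinib array was the lowest and both arrays in drug were below both without. The differences were -0.33 at 24 hours and -0.77, or 1.70-fold lower, at 21 days, and the 24-hour value was -0.18 against the 21-day control. A difference of the 21-day size was reached by 13.6% of features in that comparison and by 6.0% between the untreated arrays.

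TFB1M (Entrez gene 51106), a methyltransferase of the mitochondrial ribosomal RNA, had levels of 8.62 in 24-hour crizotinib and 8.36 in vehicle, and 8.08 in 21-day crizotinib and 8.34 in the 21-day control. The 24-hour crizotinib array was the highest and the 21-day crizotinib array the lowest, with differences of 0.26 and -0.26. TFB2M (Entrez gene 64216), which melts the promoter for the mitochondrial RNA polymerase, had levels of 7.27 in 24-hour crizotinib and 7.52 in vehicle, and 7.67 in 21-day crizotinib and 7.61 in the 21-day control. Its differences were -0.25 and 0.06. Sizes like those of TFB1M and of TFB2M at 24 hours were reached by more than 42% of features between the untreated arrays, where the shares were 43.3% and 42.5% for TFB1M and 43.8% for TFB2M.

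CREB1 (Entrez gene 1385), a transcription factor activated by phosphorylation rather than by its amount, had levels of 8.19 in 24-hour crizotinib and 7.96 in vehicle, and 7.74 in 21-day crizotinib and 7.84 in the 21-day control. The 24-hour crizotinib array was the highest of the 4. The differences were 0.22 and -0.09, and 58.8% and 82.0% of features differed at least as far in the same comparisons. Transcript levels carry no information on phosphorylation of the protein.

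**Figure D2:**
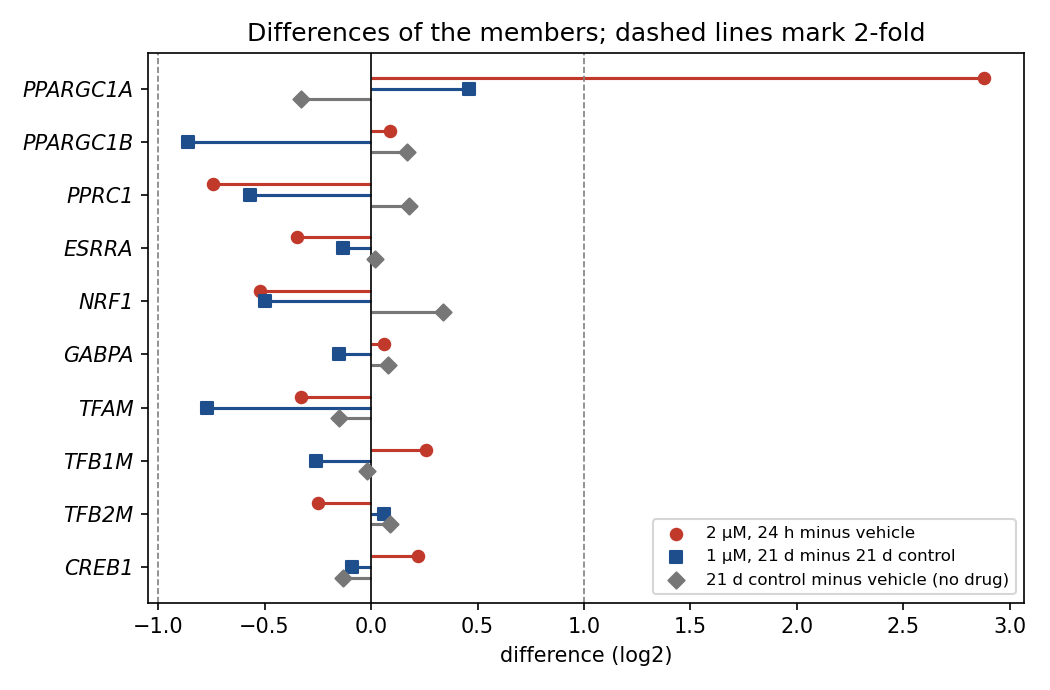
Log2 differences of the 10 members for 2 µM crizotinib at 24 hours minus vehicle, 1 µM crizotinib at 21 days minus the 21-day control, and the 21-day control minus vehicle. PPARGC1A at 24 hours (2.88) is the 1 value beyond the dashed lines that mark 2-fold, and PPRC1 and NRF1 lie at -0.50 or lower in both drug comparisons.

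Over the 10 members, all of which reached 4.96 on the higher array of each comparison, 1 was at least 2-fold higher and 0 were at least 2-fold lower at 24 hours. The background over all 12468 features was 5.0% in either direction, 2.88% higher and 2.13% lower. At 21 days 0 of 10 reached 2-fold in either direction, beside 8.05% of 12450 features, 3.97% higher and 4.08% lower. At 1.5-fold in either direction the backgrounds were 18.9% and 22.0%. At 24 hours 1 member was higher by that rule (PPARGC1A, background 10.2%) and 1 was lower (PPRC1, background 8.75%). At 21 days 0 were higher (background 10.7%) and 2 were lower (PPARGC1B and TFAM, background 11.2%). By sign alone, 5 were above 0 and 5 below 0 at 24 hours, beside 49.9% of features each way, and 2 were above 0 and 8 below 0 at 21 days, beside 48.6% and 51.4%. The median difference of the members was -0.10 at 24 hours and -0.20 at 21 days, and over all features it was 0.00 and -0.01.

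Across the pairs, 1 member was above 0 in both (PPARGC1A, background 29.4%), 5 had opposite signs (background 38.1%) and 4 were below 0 in both (PPRC1, ESRRA, NRF1 and TFAM), and for these 4 both arrays in drug were below both arrays without drug. The background was 32.3% of features below 0 in both pairs and 22.3% with both arrays in drug lowest. By at least 1.4-fold in both pairs, 2 members were lower, PPRC1 and NRF1, beside 5.58% of features. That cut lies just under the 1.43-fold and 1.41-fold of NRF1 and the 1.48-fold of PPRC1 at 21 days. Neither gene was 1.5-fold lower in both pairs, so the count depends on the cut. The 21-day crizotinib array was the lowest of the 4 for 5 members, beside 30.3% of features, and the 24-hour crizotinib array was the highest for 3, beside 28.0%. Cell division genes moved along with the drug in both pairs: 10 of 10 were below 0, with median differences of -0.99 at 24 hours and -2.59 at 21 days, and 0.04 between the untreated arrays. The part of this in the lower values of the members was not tested.

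A model across all features was fitted with limma on the 11891 features whose mean reached 4.96. Vehicle and the 21-day control served together as the untreated group, so both drug comparisons share their controls, and 1 residual degree of freedom remains. PPARGC1B was not among the features tested, since its mean lay just below the filter. Of the 9 members tested, 0 passed an adjusted p of 0.05 in the 24-hour comparison, where 0.00841% of all features passed, and 3 had an unadjusted p under 0.05, beside 16.3% of features. PPARGC1A had the second smallest p of all features, with a difference of 3.05 (SE 0.255, adjusted p = 0.154, limma), and its adjusted p ran from 0.124 to 0.303 over the alternatives. PPRC1 followed at -0.83 (SE 0.233, adjusted p = 0.222, limma) and NRF1 at -0.69 (SE 0.256, adjusted p = 0.292, limma).

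In the 21-day comparison of that fit, 1.49% of features passed and 0 of 9 members did, with 1 at an unadjusted p under 0.05, beside 16.9% of features. That member was TFAM, at -0.84 (SE 0.229, adjusted p = 0.177, limma; 0.177 to 0.255 over the alternatives). PPARGC1A differed by 0.29 (SE 0.255, adjusted p = 0.615, limma). A further fit estimated the mean crizotinib difference of the 24-hour and 21-day pairs with a pair term. Of 11891 features, 0.0% passed an adjusted p of 0.05 in it and 14.6% passed an unadjusted one. It gave 4 members an unadjusted p at or under 0.05: PPARGC1A at 1.67 (SE 0.569), PPRC1 at -0.65 (SE 0.194), NRF1 at -0.51 (SE 0.191) and TFAM at -0.55 (SE 0.214). Their adjusted p was 0.253 or higher (limma). This fit takes exposures of different dose and length as repeats of one treatment.

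The counts of the gene lists below are to be read against the shares over all features: 49.9% above 0 at 24 hours and 48.6% at 21 days, 5.0% and 8.05% past 2-fold, and 16.3%, 16.9% and 14.6% at an unadjusted limma p under 0.05 at 24 hours, at 21 days and over both pairs. Upstream of the coactivators, the CREB family, its kinases and its coactivators had 16 measured genes. At 24 hours 13 were above 0 and 0 reached 2-fold, with a median difference of 0.27. The highest were PRKAR2B, a regulatory subunit of protein kinase A, at 0.98 and CREBBP, the acetyltransferase CBP that binds phosphorylated CREB, at 0.53, and the lowest were SIK1, a kinase that inhibits CRTC coactivators, at -0.70 and the calcium-dependent kinase CAMK4 at -0.33. At 21 days 8 were above 0 and 8 below, with SIK1 at 1.31, the 1 gene past 2-fold, and with PRKAR2B at -0.90 and CAMK4 at -0.86. The untreated arrays differed by -0.52 for CAMK4, and its 24-hour crizotinib level of 6.99 lay above the 21-day control's 6.80. SIK1 and PRKAR2B thus had opposite signs in the pairs. In limma 0 of 16 passed in any of the 3 comparisons, and 2, 4 and 1 had an unadjusted p under 0.05 at 24 hours, at 21 days and over both pairs, beside 16.3%, 16.9% and 14.6% of all features.

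CREB-responsive genes were read from 13 measured members, of which 9 reached 4.96 in each drug comparison. At 24 hours the median was 0.05, with NR4A2, an orphan nuclear receptor induced by cAMP, at 1.57 (5.79 in crizotinib and 4.22 in vehicle). NR4A2 reached 4.96 only on the 24-hour crizotinib array. Its levels on the others, at 4.22 to 4.62, cannot be told from background, and the size of the difference rests on such values. At 21 days the median was 0.50 and 9 of 13 were above 0, with the transcriptional regulator CITED2 at 1.80, SIK1 at 1.31 and the phosphatase DUSP1 at 0.99. CITED2 rose in the 21-day limma comparison by 1.77 (SE 0.224, adjusted p = 0.0411), the 1 gene of 8 tested that passed, and without the level filter 0 of all features passed. The 21-day comparison also gave SIK1 1.31 (SE 0.222), DUSP1 0.82 (SE 0.258) and the clock gene PER1 -0.37 (SE 0.222). At 24 hours SIK1 was at -0.69 and DUSP1 at -0.3 in the same fit. Over both pairs 0 of 8 passed in limma.

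Regulators of the PGC-1alpha gene and protein (kinases, acetylation enzymes and transcription factors) had 24 measured genes and a median of 0.23 at 24 hours and 0.04 at 21 days. MEF2C, a factor that binds the PPARGC1A promoter in muscle, was the 1 gene past 2-fold at 24 hours, at 2.05. Its levels were 6.32 in crizotinib and 4.28 in vehicle, and 4.99 in 21-day crizotinib and 5.08 in the 21-day control. The vehicle level lay below 4.96, where a level cannot be told from background. The untreated arrays differed by 0.80 for MEF2C. Its relative MEF2D was at 0.86 at 24 hours and 0.54 at 21 days. The AMPK subunit PRKAB2 was at 0.44 and 0.75. The lowest values at 24 hours were those of RNF34, a ubiquitin ligase for PGC-1alpha, at -0.47 and the arginine methyltransferase PRMT1 at -0.34. None of 21 tested genes passed in limma in the 3 comparisons, where 2, 1 and 2 had an unadjusted p under 0.05, and MEF2C had a difference of 1.64 at 24 hours (SE 0.378, adjusted p = 0.188).

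Nuclear receptors that recruit PGC-1 coactivators had 12 measured genes, 10 of them above 0 at 24 hours with a median of 0.22, and 9 above 0 at 21 days with a median of 0.20. The thyroid hormone receptors THRA and THRB were at 0.87 and 0.74 at 24 hours and at 0.38 and 0.63 at 21 days, and the untreated arrays differed for them by -0.94 and -0.72 (21-day control minus vehicle), so that both 21-day crizotinib levels lay below those of vehicle (6.56 and 5.49). PPARG, the receptor of fat cell differentiation, was at 0.65 at 24 hours, with 5.49 in crizotinib and 4.84 in vehicle, and at -1.34 at 21 days, with 4.46 in 21-day crizotinib and 5.80 in the 21-day control. The untreated arrays differed by 0.96 for PPARG, and the 24-hour crizotinib level lay below that of the 21-day control. Among 9 genes tested with limma 0 passed in the 3 comparisons, and 3, 0 and 2 had an unadjusted p under 0.05.

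Corepressors and partner coactivators had 12 measured genes. The steroid receptor coactivators NCOA2 and NCOA1 were highest at 24 hours, at 0.89 and 0.74, and were at 0.05 and 0.07 at 21 days. At 21 days 9 of 12 were below 0, with a median of -0.43, and PARP1, which consumes NAD and modifies chromatin, was the 1 gene past 2-fold, at -1.06. GABPB1, the partner subunit of GABPA, was below 0 in both pairs, at -0.53 and -0.60, although the untreated arrays differed by 0.51 for it and its 21-day crizotinib level (7.14) was close to vehicle (7.23). HCFC1, a cofactor of GABP and of PGC-1, was at 0.30 and -0.73. Limma called 0 of 12 in the 3 comparisons, with 3, 1 and 2 at an unadjusted p under 0.05, and PARP1 had -1.14 at 21 days (SE 0.229, adjusted p = 0.104).

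Genes that copy and transcribe mitochondrial DNA or handle its RNA had more members below 0 than above it in both pairs. Of 24 measured genes, 18 were below 0 at 24 hours, beside 49.9% of all features, and 19 at 21 days, beside 51.4%. The medians were -0.23 and -0.26, and -0.01 between the untreated arrays. SLIRP, which stabilizes mitochondrial mRNA, was at -0.73 and -0.70, the RNA processing enzyme PNPT1 at -0.51 and -0.89, the helicase TWNK at -0.64 and -0.07, and the nuclease and helicase DNA2 at -0.56 and -1.49. RRM2B, the p53-induced ribonucleotide reductase subunit that supplies nucleotides outside S phase, was at 0.36 and 1.18, and the mitochondrial thymidine kinase TK2 at 0.33 and 0.45. At least 1.5-fold lower were 3 genes at 24 hours and 7 at 21 days, beside backgrounds of 8.75% and 11.2% of all features. With limma 0 of 22 passed in the 3 comparisons, and 3, 7 and 6 had an unadjusted p under 0.05 at 24 hours, at 21 days and over both pairs, beside 16.3%, 16.9% and 14.6% of all features. Transcripts of the mitochondrial genome itself were not analysed here, since 0 of 15 had a named feature.

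Respiratory genes with known NRF-1 or GABP sites had medians of 0.13 at 24 hours and -0.06 at 21 days over 18 measured genes. At 24 hours they ran from -0.26 for ATP5F1B, the catalytic subunit of ATP synthase, to 0.52 for UQCRB of complex III, and 0 reached 1.5-fold. At 21 days SDHD, a membrane anchor of complex II, was at -1.18 and the copper chaperone COX17 at -0.61. The level of SDHD was 6.62 in 21-day crizotinib and 7.80 in the 21-day control, beside 6.87 in 24-hour crizotinib and 6.83 in vehicle, so the 21-day control was the array that stood apart. By limma 0 of 16 passed in the 3 comparisons, and 0, 2 and 0 had an unadjusted p under 0.05.

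Metabolic targets of PGC-1alpha and ERR-alpha had 25 measured genes, and their medians were 0.05 at 24 hours and 0.04 at 21 days. Beside PPARGC1A the 24-hour array had FABP3, a fatty acid binding protein of muscle and heart, at 8.42 in crizotinib and 3.96 in vehicle, and LPIN1, a phosphatidate phosphatase and nuclear coactivator, at 9.38 in crizotinib and 8.05 in vehicle. Their differences were 4.47 and 1.34, and no other gene of the list was at least 2-fold higher at 24 hours. In that comparison 18 of the 25 genes reached 4.96 on the higher array. At 1.5-fold 5 of these 18 were higher and 1 was lower, beside 10.2% and 8.75% of all features. PDK4, among the 5, reached 4.96 only on the 24-hour crizotinib array. FABP3 rose by 4.49 in the 24-hour limma comparison (SE 0.223, adjusted p = 0.0485), and it was the 1 feature of 11891 that passed there, a call that was lost without the level filter. FABP3 reached that filter only through the 24-hour crizotinib array: the other 3, at 3.91 to 4.40, lay below 4.96, where a level cannot be told from background, so the size of the difference rests on values of that kind. Over both pairs 0 of the 17 genes of the list tested passed in limma. There 3 had an unadjusted p under 0.05, beside 14.6% of all features. At 21 days FABP3 was at 0.50 and LPIN1 at 0.28, and SOD2, the mitochondrial superoxide dismutase, was the 1 gene past 2-fold, at 1.24. The untreated arrays differed by -0.95 for LPIN1, whose 21-day crizotinib level of 7.37 lay below vehicle, and by 0.92 for SOD2, which had 11.50 in 21-day crizotinib and 10.26 in the 21-day control, and 10.31 in 24-hour crizotinib and 9.35 in vehicle. CPT1A, the gate of fatty acid entry into mitochondria, was at -0.16 and -0.32, but the untreated arrays differed by 0.64 for it and its 21-day crizotinib level (9.26) lay above vehicle (8.95). The acyl-CoA dehydrogenase ACADVL was at -0.33 and 0.50.

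Genes of mitochondrial fusion, fission and mitophagy had medians of 0.06 and -0.09 over 12 measured genes, and 24-hour differences between -0.28 and 0.21. At 21 days the mitophagy receptor BNIP3 was at 1.53 and the mitophagy kinase PINK1 at 1.20, while the fusion GTPase OPA1 was at -0.50. BNIP3 had 9.93 in 21-day crizotinib and 8.39 in the 21-day control, which was itself 1.16 below the vehicle array's 9.55, whereas PINK1 was highest in 21-day crizotinib and lay between 7.80 and 7.98 on the other 3 arrays. Of 12 genes tested with limma 0 passed in the 3 comparisons, and 1 had an unadjusted p under 0.05, at 21 days.

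**Figure D3:**
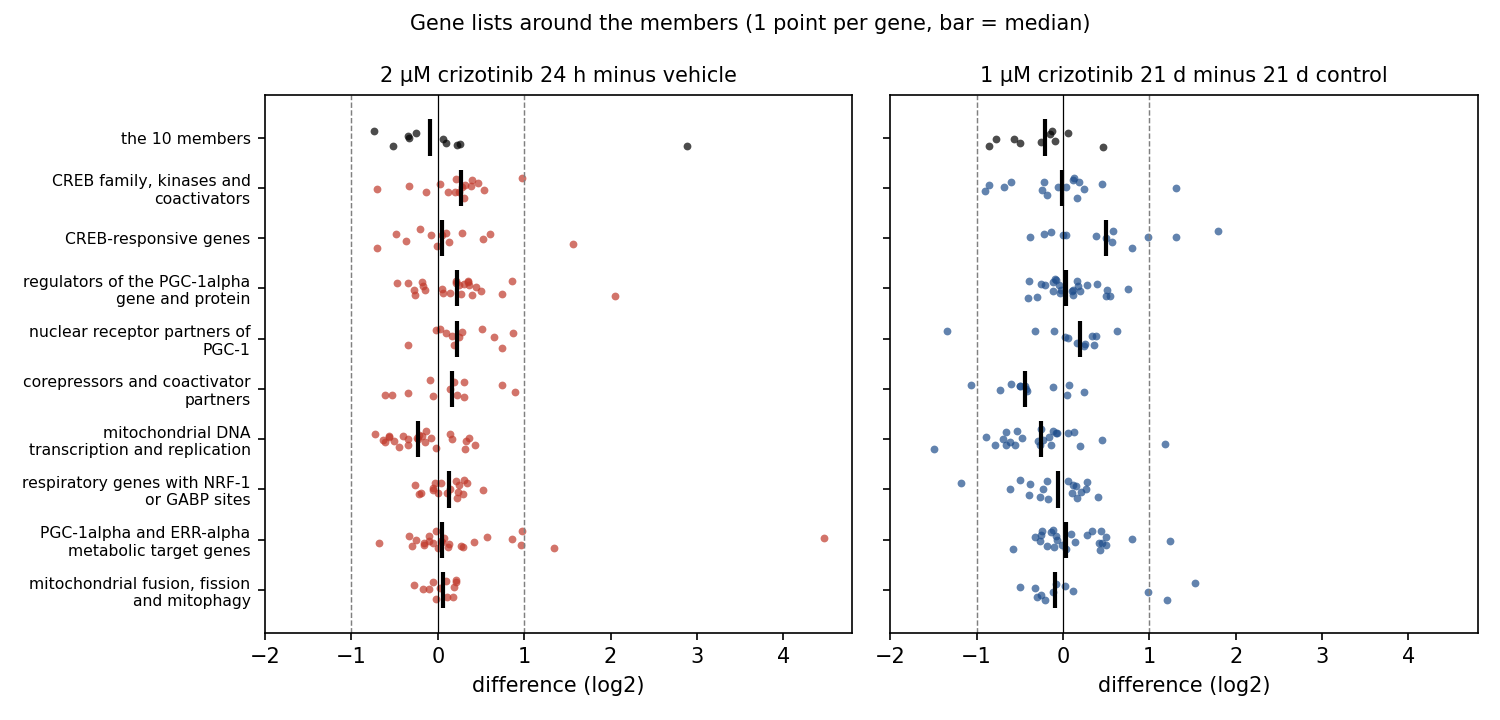
Log2 differences of the 10 members (top row, black) and of the genes of the surrounding lists at 24 hours (left panel) and 21 days (right panel), 1 point per gene, with a bar at each median and dashed lines at 2-fold. At 24 hours PPARGC1A (2.88), MEF2C (2.05) and FABP3 (4.47) stand to the right of lists whose medians lie between -0.23 and 0.27. The vehicle levels of MEF2C and FABP3 lay below 4.96, where a level cannot be told from background.

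The genes whose pattern over the 4 arrays was most like that of PPARGC1A were sought among 11601 named genes that reached 4.96 on at least 1 array, by the Euclidean distance between their values after each gene's mean over the 4 arrays was subtracted. The nearest was FAXDC2, a member of the fatty acid hydroxylase family, at a distance of 0.22 on the log2 scale. Its levels were 8.82 in 24-hour crizotinib and 6.23 in vehicle, and 6.11 in 21-day crizotinib and 5.77 in the 21-day control. The next were SLIT3, an axon guidance ligand (0.46), KCND2, a voltage-gated potassium channel (0.53), CCDC102B (0.57), PRUNE2 (0.60) and SFRP2, a secreted Wnt modulator (0.60). All 6 were 2.12 to 2.67 higher in 24-hour crizotinib than in vehicle, a rise that follows from how they were chosen. Their 21-day differences ran from 0.06 for CCDC102B to 1.14 for PRUNE2. KCND2 and CCDC102B reached 4.96 only on the 24-hour crizotinib array, at 5.82 and 5.85. Their vehicle levels were 3.66 and 3.67, where a level cannot be told from background. The likeness rests on 4 values per gene, 1 of which stands far from the rest.

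**Figure D4:**
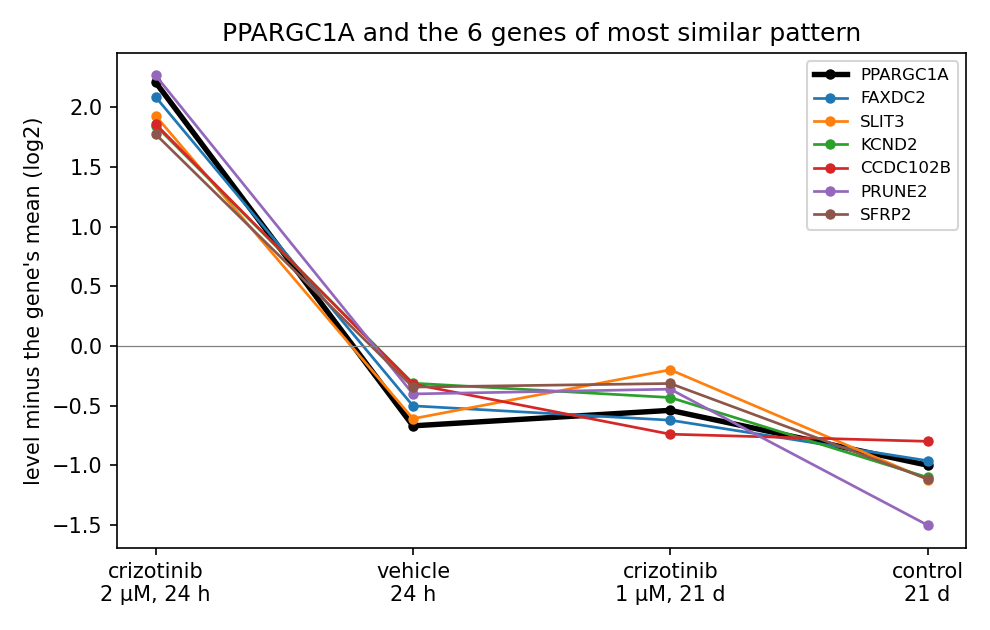
Levels of PPARGC1A (black) and of the 6 genes of nearest pattern, each minus its own mean over the 4 arrays (log2), in the order 24-hour crizotinib, vehicle, 21-day crizotinib and 21-day control. All 7 lines peak on the 24-hour crizotinib array, which follows from choosing the 6 by likeness to PPARGC1A, and FAXDC2 lies closest to it (distance 0.22).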

How the data were processed

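The authors deposited log2 expression values per gene for 4 Affymetrix whole-transcript arrays; RMA, affy 1.36.1 and R 2.15.1 are named in the submitters' processing notes. RMA involves background correction, quantile normalization and a summary over probes, and it compresses differences between low values. Features are named by Entrez number, and 1328 were unnamed here. Detection calls and scanner files were not used here. The members, lists and rules were chosen with earlier results of these data known.

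Each array in drug was set against its own control. With 1 array per condition, genes were described by size: a 2-fold difference or more, in features that reached 4.96 (the median of all values) on the higher array. Fits used limma 3.58.1 in R 4.3.3 with Benjamini-Hochberg adjustment over all features tested, each with 1 residual degree of freedom. Where an array in drug was set against both untreated arrays, it was assumed to vary like them. The residual spread of a gene there is that between the untreated arrays alone. Nothing in the labels says that these arrays are repeats of the same culture. In the fit over both pairs, the residual spread is the disagreement between the drug differences of the pairs. In every fit, limma also drew on the spread of all features tested for the variance of each gene. Genes named from a list are those at least 2-fold changed and the 2 highest and 2 lowest of each drug comparison; not all are printed. Promoter windows and gene coordinates are from RefSeq on GRCh38.p14; the build behind the array annotation is not given in the sources used here. Other controls, scalings, filters and variance models were tried.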

Additional observations from a re-analysis of the deposited data

Results flagged for a closer look

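With 1 array per condition, 5 members had opposite signs in the 2 exposures, and these differences between exposures were not tested. PPARGC1B was at 0.09 at 24 hours and -0.86 at 21 days, GABPA at 0.06 and -0.15, TFB1M at 0.26 and -0.26, TFB2M at -0.25 and 0.06, and CREB1 at 0.22 and -0.09. Opposite signs were found for 38.1% of the 11873 features that reached 4.96 in both pairs.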

How the results depend on the processing

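At 1.5-fold in place of 2-fold, 2 members passed at 24 hours and 2 at 21 days, against 1 and 0. The counts of members past 2-fold were the same with the other untreated array or the mean of both as control, with centred differences, without the level filter and with a filter at 6. The member medians ran from -0.13 to -0.10 at 24 hours and from -0.21 to -0.19 at 21 days. With the other untreated array as control, 4 of 20 member differences moved by over 0.289, the SD per array from the untreated pair: PPARGC1A to 3.21 and 0.13, and NRF1 to -0.85 and -0.16, at 24 hours and 21 days. The sign changed for 2 members at 24 hours (PPARGC1B and GABPA, to -0.08 and -0.02) and for 0 at 21 days. Limma called 0 members in each of the 3 comparisons with an intensity trend, with centred arrays and without the level filter, where the count over all features was 0 against 177 at 21 days and 0 against 1 at 24 hours; the filter changes the number of features adjusted over. The labels give no replicate numbers to pair arrays by, so the pair term of the fit over both exposures joins each array in drug to its own control, and with 1 array per group none could be left out. Without detection calls, a low level such as that of PPARGC1B cannot be told from background.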
